A study of Mus musculus with 2 samples.

Results

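The genes described here encode the cytokines and chemokines of the mouse and their receptors, read as accessible DNA in the developing cortex. They were chosen by symbol alone: protein-coding genes of GENCODE M21 whose symbol begins with Il, Ccl, Ccr, Cxcl or Cxcr followed by a number, which gave 134 of 21911 protein-coding genes. The list holds 38 interleukin ligands, 41 interleukin receptors, 23 CC chemokines, 11 CC chemokine receptors, 12 CXC chemokines and 6 CXC chemokine receptors. The 3 remaining genes are Il1rn (an interleukin-1 receptor antagonist), Il18bp (an interleukin-18 binding protein) and Il4i1 (an amino acid oxidase named for its induction by interleukin-4).

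DNase-seq maps the sites at which the nuclease DNase I cuts chromatin, and a peak marks DNA that is open to it. The tissue was the left cerebral cortex of male B6CASTF1/J mice, the F1 hybrid of C57BL/6J and CAST/EiJ, at 14 days of age. One group of 2 libraries was made: replicate 1 came from 3 males and replicate 2 from 1 male, so no comparison between conditions and no test over samples could be made. Both labels carry 1 donor identifier, so that the spread between the libraries may not be a spread between animals. Reads of both parental genomes were placed on mm10, the assembly also named GRCm38.

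Interleukins are secreted proteins by which immune and other cells signal, mostly through receptors that pair a ligand-specific chain with a shared one, such as gp130 or the common gamma chain, and act through JAK and STAT proteins; the interleukin-1 and interleukin-17 families act through adaptor proteins and NF-kB. Chemokines are small secreted proteins that guide cells, and their receptors are G protein-coupled. In healthy brain few of these genes are strongly transcribed; microglia, astrocytes and endothelium are known sources on injury, and Cxcl12 and Cxcr4 also direct neuron and interneuron migration during development.

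The deposited peaks numbered 150726 in replicate 1 and 155536 in replicate 2. Promoters of marker genes gave a check on the tissue. The 5 excitatory neuron markers and the 5 astrocyte markers had a promoter peak in both libraries. Of the 8 microglia markers 5 did so and the other 3 (P2ry12, Aif1 and Itgam) had one in replicate 2 alone, and of 5 endothelial markers 3 did so. None of 6 T and B cell markers had a promoter peak in both libraries, and 1 of them, Cd2, had one in replicate 2, with a signal of 0.565. The 3 erythroid markers had none. Of 3 hepatocyte markers Apoh had one in both libraries, at the start of another gene, and Alb had one in replicate 1 alone.

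A peak was assigned to a promoter where it reached into the 1000 bp to either side of an annotated start of the gene, and a gene with one in both libraries is called open. The promoter signal is the authors' depth-scaled cleavage density at the strongest such peak. Sequences are shown for the open gene of highest signal in each role whose peak lay at no other protein-coding start and held enough sequence outside exons, with the next receptors in order, because these are the sites on which the account of the strongest members rests. Each run is the longest stretch of the replicate 1 peak that lies in no annotated exon, 5′ to 3′ on the strand of the gene, from the RefSeq copy of GRCm38. Capitals mark bases inside footprints, short protected stretches within a peak, that were called in both libraries.

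Il6 (interleukin-6, an acute inflammatory cytokine; intron, chr5:30013211-30013320, plus strand) is given first.
Il6: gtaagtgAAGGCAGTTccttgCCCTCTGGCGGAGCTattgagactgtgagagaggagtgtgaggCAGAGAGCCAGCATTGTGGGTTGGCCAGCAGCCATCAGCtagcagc
Il6st (gp130, the signalling chain shared by interleukin-6 and related cytokines) lies at chr13:112463901-112464069, plus strand.
Il6st: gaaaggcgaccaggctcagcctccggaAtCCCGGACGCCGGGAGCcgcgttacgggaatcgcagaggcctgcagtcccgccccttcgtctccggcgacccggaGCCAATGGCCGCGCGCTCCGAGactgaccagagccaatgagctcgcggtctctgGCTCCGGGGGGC
Il1rap (the accessory chain of the interleukin-1 and interleukin-33 receptors) lies at chr16:26581541-26581703, plus strand.
Il1rap: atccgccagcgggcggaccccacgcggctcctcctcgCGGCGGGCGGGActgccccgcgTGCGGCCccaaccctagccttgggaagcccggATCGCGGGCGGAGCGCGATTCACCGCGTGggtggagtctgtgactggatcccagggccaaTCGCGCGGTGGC
Il17rd (a receptor-like protein that also inhibits fibroblast growth factor signalling) lies at chr14:27038841-27038940, plus strand.
Il17rd: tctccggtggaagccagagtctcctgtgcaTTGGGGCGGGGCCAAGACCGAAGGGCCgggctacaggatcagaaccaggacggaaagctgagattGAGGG
Ccl28 (a chemokine of mucosal epithelia; intron, chr13:119649401-119649515, plus strand) follows.
Ccl28: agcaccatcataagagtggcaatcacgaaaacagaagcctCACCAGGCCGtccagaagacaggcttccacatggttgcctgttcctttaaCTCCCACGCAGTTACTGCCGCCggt
Cxcl10 (an interferon-induced chemokine) lies at chr5:92348890-92349020, minus strand.
Cxcl10: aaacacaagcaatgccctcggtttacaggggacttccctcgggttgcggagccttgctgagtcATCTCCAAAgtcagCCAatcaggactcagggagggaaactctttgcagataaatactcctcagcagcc
Cxcr4 (the receptor of Cxcl12) lies at chr1:128592981-128593220, minus strand.
Cxcr4: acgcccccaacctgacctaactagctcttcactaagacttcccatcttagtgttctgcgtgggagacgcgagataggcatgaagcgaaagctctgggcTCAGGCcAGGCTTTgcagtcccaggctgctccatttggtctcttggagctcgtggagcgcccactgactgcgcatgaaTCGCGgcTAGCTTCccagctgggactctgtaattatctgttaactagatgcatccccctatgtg

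A smaller share of cytokine and chemokine genes was open than of protein-coding genes as a whole. A promoter peak was found in both libraries at 57 of 134 genes (42.5%), against 66.7% of all protein-coding genes. By library, 60 genes (44.8%) had one in replicate 1 and 64 (47.8%) in replicate 2, a mean of 46.3% ± 2.11 (SD, n = 2), against 68.7% and 68.1% of all protein-coding genes, a mean of 68.4% ± 0.413. The gap was larger than the spread between the libraries, which does not measure the counting error of a share over 134 genes. Of the rest, 10 genes had a promoter peak in 1 library and 67 in neither.

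Receptors of interleukins stood closest to the genome as a whole and receptors of CC chemokines furthest below it. Among interleukin receptors 23 of 41 were open (56.1%), and among interleukin ligands 13 of 38 (34.2%). Of the CC chemokines 9 of 23 were open (39.1%), and of the CC chemokine receptors 2 of 11 (18.2%). The CXC chemokines had 6 open of 12 and the CXC chemokine receptors 3 of 6. Over the receptor roles together 28 of 58 genes were open (48.3%), and over the ligand roles 28 of 73 (38.4%). The remaining open gene was Il4i1.

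**Figure D1:**
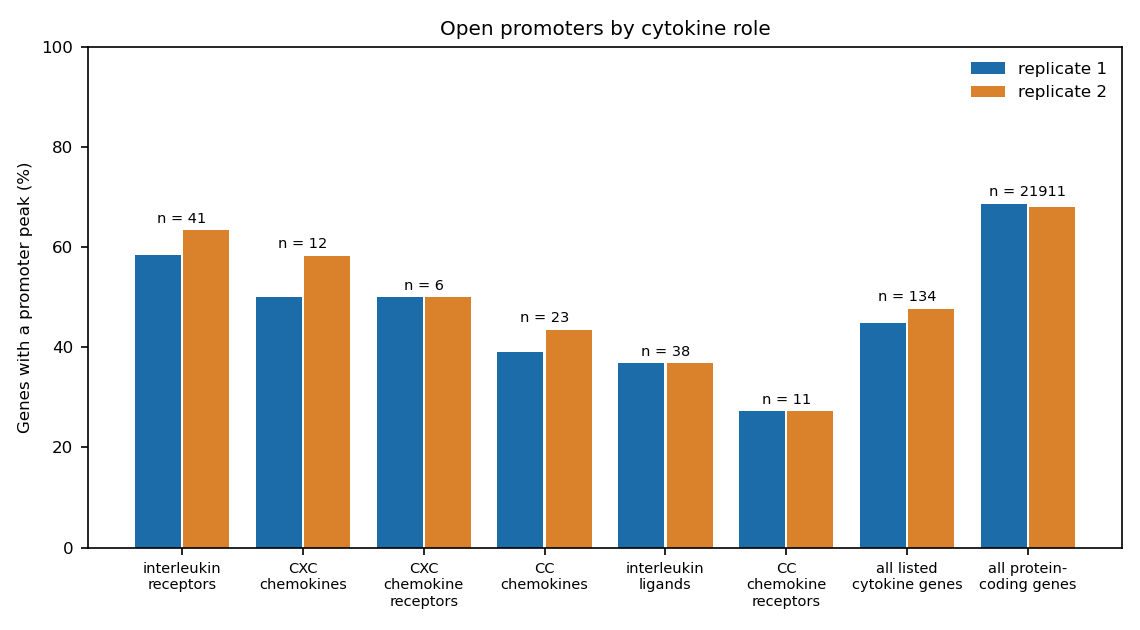
Percentage of genes with a promoter peak, on the vertical axis, in replicate 1 (blue) and replicate 2 (orange), for 6 roles of cytokine and chemokine genes, for all 134 listed genes and for all 21911 protein-coding genes. The interleukin receptors reached 58.5% and 63.4%, the CC chemokine receptors 27.3% in each library, and all protein-coding genes 68.7% and 68.1%; Il1rn, Il18bp and Il4i1 are counted in the 134 only.

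Open cytokine promoters were also weak. The median promoter signal over the 57 open genes was 0.867 in replicate 1 and 1.12 in replicate 2, against 3.62 and 4.04 over the open protein-coding genes. In both libraries at once, 52 of the 57 lay under the median of open protein-coding genes, or 91.2%, where 47.1% of open protein-coding genes did so. The 5 at or above it in at least 1 library were Il4i1, Ccl25, Il6st, Il1rap and Il6, and of these Il4i1 and Ccl25 had their strongest peak within 1000 bp of a start of another protein-coding gene as well. The microglia markers that were open ranged between 0.493 and 0.748 in replicate 1 and between 0.577 and 0.940 in replicate 2, values of the same size as many of the listed genes. This was not particular to microglia. The open astrocyte markers had medians of 0.559 in replicate 1 and 0.602 in replicate 2, and the open endothelial markers 0.488 and 0.541. In bulk tissue, a site open in few cells and a site weakly open in many cells cannot be told apart.

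**Figure D2:**
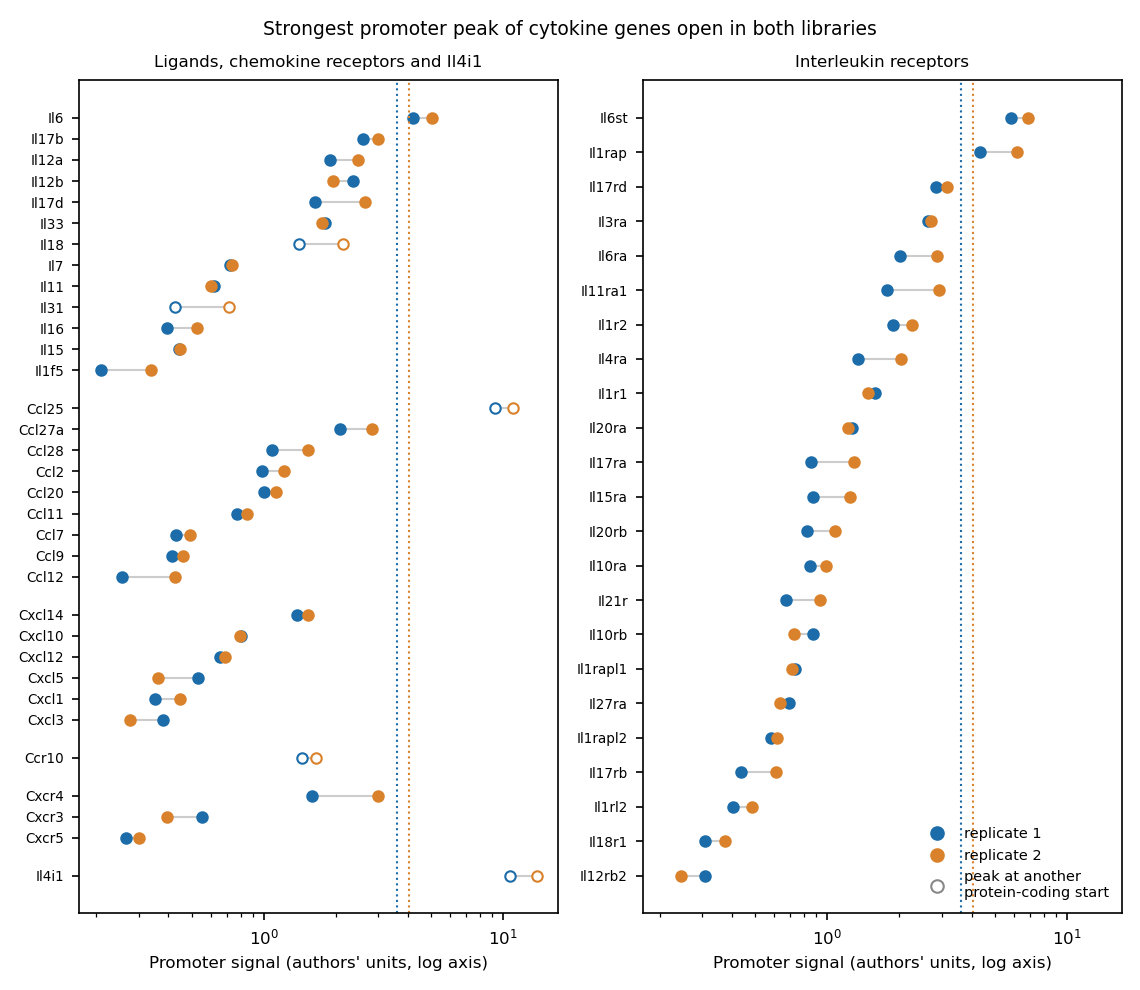
Promoter signal of 56 of the 57 cytokine and chemokine genes open in both libraries, on a log axis in the authors' units, with replicate 1 in blue and replicate 2 in orange; hollow points mark a strongest peak at the start of another protein-coding gene in both libraries, and dotted lines the medians of all open protein-coding genes (3.62 and 4.04). Il4i1 (10.7 and 13.8) and Ccl25 (9.22 and 11.0), both hollow, stand highest, and Il6st, Il1rap and Il6 are the filled points beyond the dotted lines in both libraries.

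Among the interleukin ligands Il6 stood apart. Its promoter signal was 4.22 in replicate 1 and 5.07 in replicate 2 (4.64 ± 0.60, SD, n = 2), and it was the highest of the 38. The peak did not cover the 5′ end of the gene: its centre lay 177 bp downstream in both libraries, in the intronic sequence printed above, at -30 bp from another annotated Il6 start. Il17b, an interleukin-17 family ligand, followed with 2.61 and 3.00 (2.80 ± 0.274). Il12a, the p35 subunit of interleukin-12, had 1.90 and 2.48 (2.19 ± 0.412), at a start 3297 bp downstream of the gene's 5′ end.

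The other open ligands were mostly of lower signal. Il12b, the p40 subunit of interleukin-12 and interleukin-23, had 2.36 and 1.95, from a peak centred at -922 bp from its start. Il33, an alarmin of the interleukin-1 family made by glia, had 1.80 and 1.75. Il17d had 1.63 and 2.66, from a peak centred 984 bp and 1074 bp inside the gene. The remaining 7 ran from Il18 (1.40 and 2.15) over Il7 (0.725 and 0.737), Il11 (0.620 and 0.602), Il31 (0.426 and 0.719), Il15 (0.440 and 0.448) and Il16 (0.393 and 0.528) to Il1f5 (0.208 and 0.338), an antagonist of the interleukin-36 receptor. Il1f5 was the weakest of these ligands in both libraries. The lymphocyte-derived interleukins Il2, Il3, Il4, Il5, Il9, Il10, Il13, Il17a, Il17f, Il21 and Il22 were without a promoter peak in either library, and so were the inflammatory Il1a and Il1b. Il1f6, Il1f8, Il1f9, Il1f10, Il17c, Il20, Il23a, Il24, Il25 and Il27 completed the 23 closed ligands.

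The interleukin receptors held the strongest members that no neighbour shared. Il6st had a signal of 5.83 in replicate 1 and 6.91 in replicate 2 (6.37 ± 0.764, SD, n = 2). Il1rap had 4.36 and 6.22 (5.29 ± 1.32). Both lay above the median of open protein-coding genes in both libraries, and the peaks covered the 5′ ends of the genes, with centres at -59 bp for Il6st and at -43 bp and -33 bp for Il1rap. Il17rd came next with 2.85 and 3.16 (3.00 ± 0.220), under that median. Chains shared by several receptors differed widely: gp130 was the highest receptor, whereas Il2rg, the common gamma chain, had no promoter peak in either library, and nor had Il2ra or Il2rb.

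Among receptor chains that pair with each other, both were open in some pairs and 1 in others. The interleukin-6 pair was open at both genes, since Il6ra, the interleukin-6 binding chain, had 2.00 and 2.87. Of the interleukin-1 receptors, Il1r1, the signalling receptor, had 1.59 and 1.47, and Il1r2, a decoy without a signalling domain, had 1.87 and 2.25. Il18r1 had 0.308 and 0.375, while its partner Il18rap was closed. Il12rb2 had 0.308 and 0.246, the lowest mean of the open interleukin receptors, while its partner Il12rb1 was closed. Il10ra had 0.848 and 0.983, and its partner Il10rb had 0.867 and 0.725, so both chains of the interleukin-10 receptor were open at like values. Il4ra had 1.34 and 2.02, and its partner Il13ra1 had a promoter peak in replicate 1 alone, at 0.308.

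The other open receptors were Il3ra (2.63 and 2.70), Il11ra1 (1.77 and 2.93), Il20ra (1.26 and 1.22), Il17ra (0.857 and 1.29), Il15ra (0.871 and 1.24), Il20rb (0.819 and 1.07), Il21r (0.672 and 0.934), Il27ra (0.691 and 0.633), Il17rb (0.436 and 0.608) and Il1rl2 (0.403 and 0.485). The neuronal synapse organiser Il1rapl1 had 0.729 and 0.713, and its relative Il1rapl2, likewise on the X chromosome, had 0.582 and 0.614. Il3ra, the binding chain of the interleukin-3 receptor, had the most promoter peaks, 8 in replicate 1 and 9 in replicate 2. The closed receptors were Il2ra, Il2rb, Il2rg, Il5ra, Il9r, Il11ra2, Il12rb1, Il13ra2, Il17rc, Il17re, Il18rap, Il22ra1, Il22ra2 and Il23r. Of the genes counted apart, Il1rn and Il18bp were closed.

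Ccl25, a chemokine of thymus and gut, had the highest signal of the CC chemokines, 9.22 in replicate 1 and 11.0 in replicate 2 (10.1 ± 1.22, SD, n = 2). That peak also lay within 1000 bp of a start of Elavl1, which encodes a widely expressed RNA-binding protein. Ccl27a followed with 2.09 and 2.84 (2.46 ± 0.530). Of the 31-base stretches in its replicate 1 peak 47.3% occur elsewhere in the genome, so its signal may include reads from other copies. Ccl28 had 1.08 and 1.52 (1.30 ± 0.314), from an internal start 25742 bp and 25732 bp downstream of its 5′ end.

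In the chromosome 11 run of monocyte and eosinophil attractants from Ccl2 to Ccl1, 4 of 6 genes were open, at low signal. Ccl2 had 0.985 and 1.21, Ccl11 had 0.772 and 0.854, Ccl7 had 0.431 and 0.491, and Ccl12 had 0.256 and 0.424. Ccl20 had 0.999 and 1.13, and Ccl9 had 0.412 and 0.461. Ccl3, Ccl4 and Ccl5, attractants of monocytes and T cells, were closed, as were Ccl1, Ccl8, Ccl17, Ccl19, Ccl21a, Ccl21b, Ccl22, Ccl24, Ccl26 and Ccl27b. Among the CC receptors Ccr10 was open, with 1.44 and 1.65 (1.55 ± 0.143), from a peak shared with Cntnap1, a gene of the axon-glia junction. Ccr1, Ccr1l1, Ccr2, Ccr3, Ccr6, Ccr7 and Ccr8 were closed, so that Ccl2 was open while its receptor Ccr2 was not.

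Cxcl14, a chemokine made by epithelia and by some cortical interneurons, was the highest of its role, with 1.38 in replicate 1 and 1.52 in replicate 2 (1.45 ± 0.103, SD, n = 2). Cxcl10 had 0.805 and 0.799 (0.802 ± 0.00463), the values closest to each other of these. Cxcl12 had 0.654 and 0.688 (0.671 ± 0.0243). Cxcl5 had 0.530 and 0.362, Cxcl1 had 0.350 and 0.448, and Cxcl3 had 0.379 and 0.276, all neutrophil attractants. Cxcl9, Cxcl13, Cxcl15, Cxcl16 and Cxcl17 were closed.

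Cxcr4 was the strongest CXC receptor, with 1.59 in replicate 1 and 2.99 in replicate 2 (2.29 ± 0.993, SD, n = 2). Cxcr3, the receptor of Cxcl10, had 0.554 and 0.393 (0.474 ± 0.114), and Cxcr5, the receptor of Cxcl13, had 0.265 and 0.301 (0.283 ± 0.0253). The peak of Cxcr4 was centred at -808 bp and -818 bp from its start, and that of Cxcr5 at 905 bp and 935 bp. Cxcr1, Cxcr2 and Cxcr6 were closed. The ligand Cxcl12 and its receptor Cxcr4 were thus both open. The neutrophil receptor Cxcr2 was closed while 3 of its ligands were open at low signal. Among open protein-coding genes, Cxcl5, Cxcl1 and Cxcl3 stood at percentiles 8.38, 3.47 and 4.27 in replicate 1. In replicate 2 they stood at 3.00, 4.98 and 1.52. In the stricter deposited list of peaks the open CXC chemokines fell from 6 to 3, so this contrast rests on weak peaks.

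The 10 genes with a promoter peak in 1 library all had low signals. In replicate 1 they were Il13ra1 (0.308), Il34 (0.317), a ligand of the microglial receptor Csf1r, and Ccr9 (0.341), whose peak lay at a start of Slc6a20a. In replicate 2 they were Ccr4 (0.430), Cxcl2 (0.338), Il7r (0.289), Il19 (0.283), Il1rl1 (0.283), which is the interleukin-33 receptor, Ccl6 (0.270) and Il31ra (0.252). The highest of the 10, Ccr4, stood at percentile 4.49 of the open protein-coding genes of its library.

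Between the libraries the listed genes moved as the rest did. The log2 ratio of promoter signals, replicate 1 over replicate 2, had a median of -0.21 and an SD of 0.34 over the 57 open genes, against -0.22 and 0.33 over open protein-coding genes. The lowest ratios were those of Cxcr4 (-0.92), Il31 (-0.75) and Ccl12 (-0.73), and high ratios were those of Cxcl5 (0.55) and Cxcr3 (0.50). With 1 library on each side no ratio could be tested. Low signals came in even steps, of 0.00474 for replicate 1 and of 0.00614 for replicate 2, so that Il1f5 at the low end stood at 44 and 55 steps; whether a step is 1 cleavage is not given in the sources used here.

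Some of these peaks lie near starts of more than 1 gene. For 5 of the 57 open genes (8.77%) the strongest promoter peak also lay within 1000 bp of another protein-coding start in both libraries, against 18.5% of open protein-coding genes. They were Ccl25 with Elavl1, Il4i1 with Nup62 and Atf5, Il18 with Bco2, Ccr10 with Cntnap1, and Il31 with Lrrc43. The peak of Il17rb lay at a start of Chdh in replicate 1 alone. Without such peaks Il4i1 kept a promoter peak of 1.31 and 1.30 and Il18 one of 0.379 and 0.498. Ccl25, Ccr10 and Il31 were then without one in both libraries, which left 54 of 134 genes open (40.3%), against 56.6% of all protein-coding genes. Leaving out peaks at starts of any other gene, noncoding ones included, gave 52 open genes (38.8%), against 50.7%. The share of cytokine genes was below that of all genes under each of these counts, with a narrower gap.

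The position of the strongest peak repeated between libraries. The same site was strongest in 54 of the 57 genes, or 94.7%, against 94.1% of open protein-coding genes, and the exceptions were Cxcl1, Cxcl3 and Il17rb. At 44 genes the peak centre lay within 250 bp of an annotated start in both libraries, and at 8 it lay beyond 500 bp. At 10 genes it lay over 1100 bp from the gene's own 5′ end, at an internal start, among them Ccl28, Il12a, Il11, Il16, Il11ra1, Il1r2, Il1r1, Il17ra and Il20rb. For Il1r1 the distance was 41481 bp, for Il11ra1 60462 bp and for Il16 90301 bp and 90327 bp. When only the 5′ end of each gene was used, 48 genes were open (35.8%), against 61.9% of all protein-coding genes.

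Footprints were called inside the strongest peak in both libraries at 53 of the 57 genes (93.0%), against 97.6% of open protein-coding genes. The exceptions, Ccl12, Il16, Il31 and Il12rb2, each lacked a footprint in 1 library, and none of these had a signal above 0.719. Of the 67 genes with no promoter peak in either library, 0 held in both libraries an interval with a false discovery rate up to 0.05 in their promoter windows, against 0.459% of closed protein-coding genes. The strongest peak of each of the 57 open genes held such an interval itself, so peaks and intervals are not separate measurements. In the stricter list of peaks 45 of 134 genes were open (33.6%), against 62.2% of all protein-coding genes.

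Most cytokine genes have few CpG dinucleotides at their 5′ ends, and this moved with the open share. The 500 bp to each side of the 5′ end held a median of 14 CpG over the 134 genes, against 41 over all protein-coding genes. Promoters above that median of 41 are called CpG-rich: 20 of the 134 genes (14.9%) were so, against 49.6% of all. Among these 17 were open (85.0%), against 95.1% of CpG-rich protein-coding promoters. Among the 114 CpG-poor genes 40 were open (35.1%), against 38.8%. Within each class the open share was closer to that of all genes than over the whole list. The part of CpG content in the lower open share was not tested.

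By role, 12 of 41 interleukin receptors were CpG-rich, and 1 of 38 interleukin ligands, Il17d, was. Among CpG-poor genes 12 of 29 interleukin receptors were open (41.4%), and 12 of 37 interleukin ligands (32.4%). The signal of open genes was lower within each class as well. Open CpG-rich members had a median of 1.59 in replicate 1 and 2.66 in replicate 2, against 4.49 and 5.10 over open CpG-rich protein-coding genes. Open CpG-poor members had 0.788 and 0.894, against 1.72 and 1.95.

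**Figure D3:**
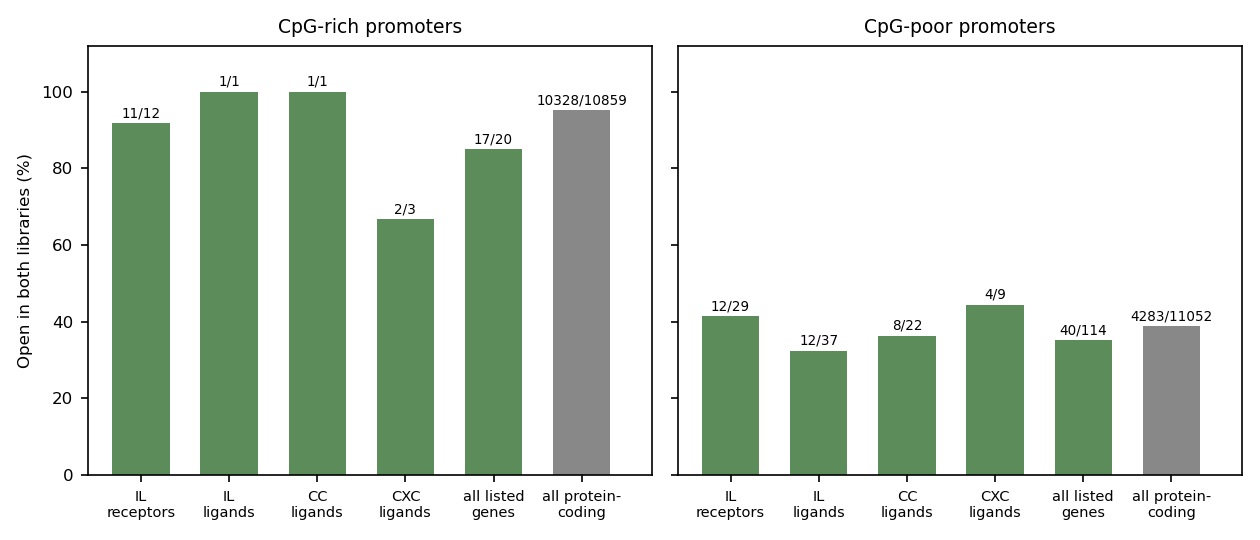
Percentage of genes open in both libraries among CpG-rich (left) and CpG-poor (right) promoters, for 4 roles and for all listed genes (green) and for all protein-coding genes (grey), with the counts above the bars. The green bar for all listed genes stands at 85.0% beside 95.1% on the left and at 35.1% beside 38.8% on the right; the roles with 1 to 3 CpG-rich genes give no usable share.

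Peak counts over whole genes and their flanks took open and closed genes together and included promoter peaks. Peaks in the gene body and 10 kb to each side numbered 515 in replicate 1 and 538 in replicate 2, with a median of 3 per gene in each library, against 4 over all protein-coding genes, which are also longer (a median of 9.73 kb, against 17.4 kb). The highest means over both libraries were those of Il11ra1 (19 in replicate 1 and 27 in replicate 2), Il3ra (22 and 17), Il1rapl2 (18 and 15), Il1rapl1 (16 and 17) and Il4i1 (13 and 16). These counts take every peak in the span, also those in overlapping genes, such as Dctn3 at Il11ra1 and Nup62 at Il4i1. Il34 had 19 in replicate 1 and 8 in replicate 2. In both libraries 8 genes had no peak at all (Il10, Il20, Il1f8, Il11ra2, Ccl19, Ccl21a, Ccl21b and Ccl27b), or 5.97%, against 13.1% of all protein-coding genes. Of the peaks of replicate 1, 75.7% (95% Wilson interval 71.8 to 79.2) overlapped a peak of replicate 2, and of those of replicate 2, 72.5% (68.6 to 76.1) overlapped one of replicate 1. Over all protein-coding genes these shares were 79.7% and 78.2%. The intervals cover counting error only.

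Introns held 34.4% of these peaks in replicate 1 and 35.1% in replicate 2, against 46.4% and 47.6% over all protein-coding genes. Intergenic flanks held 19.4% and 20.4%, against 11.2% in each library. The median signal was 0.459 and 0.522 for the intron peaks, against 0.526 and 0.651 over all protein-coding genes. For intergenic peaks it was 0.627 and 0.700, against 0.635 and 0.762, and for promoter peaks 0.727 and 0.771, against 0.867 and 1.01. A distal site is a peak away from starts that was found in both libraries, and 98 of the 134 genes had at least 1, among them 44 of the 67 with a closed promoter. The same counts over all protein-coding genes are not given here, so whether these shares are high or low cannot be told.

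Several closed genes had a distal site far stronger than most cytokine promoters. Near Cxcl9, an interferon-gamma-induced chemokine, the intergenic site chr5:92312421-92312620, 15558 bp downstream of its 5′ end, had 6.07 in replicate 1 and 5.77 in replicate 2. Near Ccl17, a T cell attractant, chr8:94812881-94813080 had 5.42 and 4.23. Within an intron of Il2ra, the alpha chain of the interleukin-2 receptor, chr2:11664081-11664240 had 4.91 and 4.23. A site between Il13 and Il4, the type 2 cytokines, at chr11:53628001-53628160 had 3.85 and 2.72. In an intron of Ccr7, chr11:99150021-99150220 had 3.34 and 2.58. A site near Il9r, also closed, had 4.95 and 3.95. The medians over the 230 distal sites were 0.699 and 0.854. The sites named here were picked for their high signal, so their place above these medians follows from the choice. Which gene such a site acts on, if any, was not tested.

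Among open genes, Cxcl12 had a site at -1524 bp from its 5′ end, chr6:117166921-117167100, with 5.21 in replicate 1 and 4.18 in replicate 2, several times its promoter signal. The strongest distal value of all lay in an intron of Il31ra, chr13:112578161-112578320, with 19.2 and 13.4. Of the 31-base words in that peak 75.4% occur elsewhere in the genome, so that reads from other copies cannot be told apart there.

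Many cytokine genes lie in clusters of related genes. Runs of 3 or more listed genes with gaps of at most 100 kb made 9 clusters with 44 genes, of which 14 were open (31.8%), against 43 of the 90 genes outside clusters (47.8%). The clusters held 47.8 peaks per Mb in replicate 1 and 57.2 in replicate 2 (52.5 ± 6.67, SD, n = 2). The genome as a whole held 55.3 and 57.1, and protein-coding genes with their flanks 80.7 and 82.4. The cluster density was below that of the genome in replicate 1 and close to it in replicate 2. In both libraries it was below that of protein-coding genes with their flanks. Those regions are unlike, since clusters were measured from the first gene to the last, with the gaps between genes and without outer flanks.

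Single clusters differed. The chromosome 11 run from Il4 to Il5, with Il13 between them, had 90.1 and 106 peaks per Mb, and none of its 3 promoters was open. Every peak from the first gene to the last was counted, also any at genes outside the list. The density therefore cannot be credited to the listed genes. The run from Ccl2 to Ccl1 had 4 of 6 genes open, and the run of interleukin-1 receptors from Il1r2 to Il18rap on chromosome 1 also had 4 of 6. From Cxcl5 to Cxcl2 on chromosome 5, 3 of 5 were open. Only 1 gene was open from Ccl5 to Ccl4 (Ccl9) and from Il1f8 to Il1rn (Il1f5). None was open in both libraries from Il24 to Il10, where Il19 had its peak in replicate 2 alone. The run from Ccl27b to Ccl21a on chromosome 4 had 0 peaks in both libraries.

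**Figure D4:**
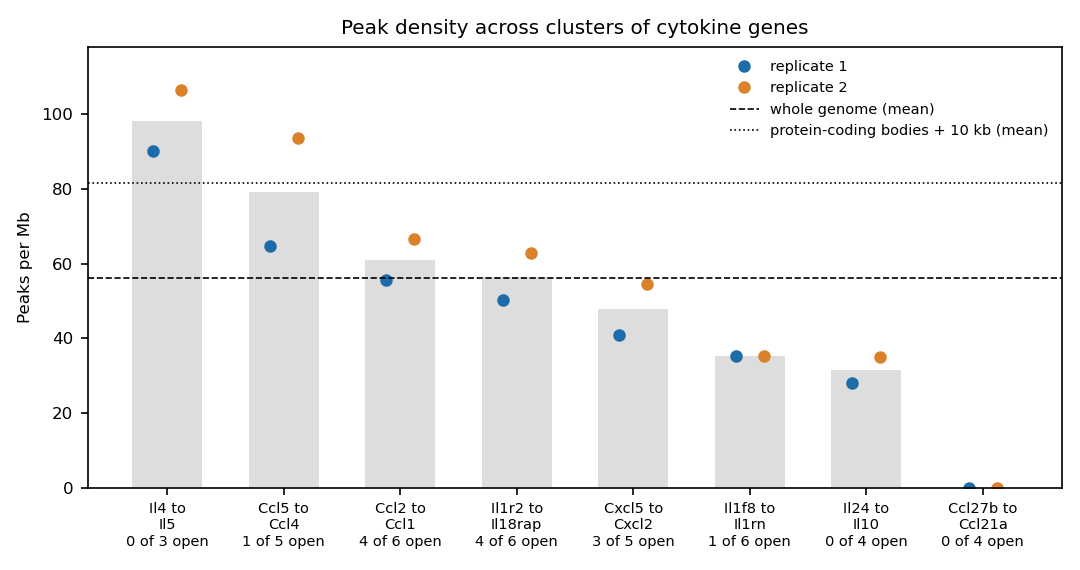
Peaks per Mb across 8 of the 9 clusters of cytokine and chemokine genes, in replicate 1 (blue points) and replicate 2 (orange points) with their mean as a grey bar, and the means of the whole genome (dashed line) and of protein-coding gene bodies with 10 kb to each side (dotted line). The run from Il4 to Il5 stands highest, with 90.1 and 106 peaks per Mb and 0 of 3 promoters open, and the run from Ccl27b to Ccl21a has 0 peaks. Every peak from the first gene to the last is counted, also any at genes outside the list.

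All 4 promoters of the chromosome 4 run lie in duplicated sequence, which touched 8 of the 134 genes. In Ccl19, Ccl21a, Ccl21b, Ccl27a, Ccl27b, Il11ra1, Il11ra2 and Il31ra more than 50% of the 31-base words of the promoter windows occur elsewhere in the genome. Of these, Ccl27a and Il11ra1 were open. This was 5.97% of the listed genes, against 7.24% of all protein-coding genes. How the authors treated reads that fit several places is not given in the sources used here, so a missing peak at these genes does not show that the DNA was closed. The peak of Ccl27a may likewise include reads from other copies.

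Short words that transcription factors recognise were counted in the 250 bases before and 50 after each 5′ end, on both strands. The NF-kB word (GGGA, any base, then TTTCC) was found in 7 of the 134 promoters (5.22%), against 0.438% of all protein-coding promoters: those of Il6, Cxcl1, Cxcl2, Cxcl3, Cxcl5, Ccl5 and Ccr3. Of these 4 were open in both libraries (Il6, Cxcl1, Cxcl3 and Cxcl5) and Cxcl2 in 1. Cxcl1, Cxcl2, Cxcl3 and Cxcl5 lie in the run of related genes from Cxcl5 to Cxcl2 on chromosome 5, so the 7 matches need not be independent. The AP-1 word TGANTCA was in 19 promoters (14.2%, against 6.91%), and the IRF word (GAAA, any 2 bases, then GAAA) in 9 (6.72%, against 3.55%). The TATA word TATAAA was in 28 (20.9%, against 12.7%), 19 of them closed genes. Among closed genes its share was 28.4%, against 23.4% of closed protein-coding genes, and among open genes 14.0%, against 7.79%. For the AP-1 word these shares were 17.9% against 10.9% and 12.3% against 5.03%. The STAT word TTCNNNGAA (9.70%, against 8.37%) and the PU.1 word GAGGAAGT (4.48%, against 3.23%) were nearer to the background. In a wider window, 500 bases before to 100 after, the STAT word was in 21 promoters (15.7%, against 17.0%), below the background, and the AP-1 word in 31 (23.1%, against 13.6%). The GC box GGGCGG was in 32 (23.9%, against 43.0%), with 7.46% against 11.0% among closed genes and 38.6% against 57.9% among open genes. These words can overlap each other, and a match is no evidence of binding.

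The same words were counted in the accessible sites themselves. In the 150 bases around the centre of the strongest peak of the 57 open genes the NF-kB word was in 0, against 0.178% over open protein-coding genes, a background too low for a count of 0 to show a difference. At Il6 the word lies before the 5′ end and the peak after it. The AP-1 word was in 4 (Ccl7, Cxcl10, Cxcl14 and Il17rb; 7.02%, against 2.16%), and in the Cxcl10 sequence above it overlaps a footprint. The IRF word was in 3 (Il15, Il1rap and Il3ra; 5.26%, against 0.979%). The GC box was in 22 (38.6%, against 51.1%), among them Il6st, Il1rap and Il17rd, and in the Il17rd sequence it lies inside a footprint.

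Genes that carry cytokine signals inside cells gave a higher share. All 43 genes of a hand-picked list had a promoter peak in both libraries, against 66.7% of all protein-coding genes. The list held JAK, STAT, SOCS, NF-kB and interleukin-1 receptor adaptor genes and was chosen with earlier results of these data known. In the stricter list 40 did so, against 62.2% of all genes. With the stronger 50% of peaks 41 did so, against 60.9%, and with the 5′ ends alone 38, against 61.9%. The CpG class of the 43 was not counted, and 95.1% of all CpG-rich protein-coding promoters were open. The promoter signals of the 43 genes had medians of 4.02 in replicate 1 and 4.66 in replicate 2. The highest were Stat3 (13.8 and 14.9), Nfkbib (9.07 and 13.2, at a shared start) and Tollip (9.03 and 11.2). A list of 42 cytokine, chemokine and receptor genes outside the symbol rule gave 25 open (59.5%), 6 in 1 library and 11 in neither, with medians of 0.928 and 1.14. Its highest were Crlf2 (7.53 and 11.5), Ifnar1 (6.17 and 8.80), a chain of the interferon receptor, and Tgfbr1 (5.90 and 7.54), and its closed genes included Csf2, Csf3 and Lif.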

How the data were processed

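DNase-seq of left cerebral cortex was used as the authors deposited it, in 1 group of 2 libraries. Per the notes deposited with each library, the files were made from its own mm10 alignments and not pooled. For the aligner and the peak caller, name and version are not given in the sources used. The deposited signal is a depth-scaled cleavage density per peak, the deposited FDR (a q-value) belongs to intervals of the local cleavage rate and is listed up to 0.05, and the deposited footprint score is constant and was not used. Sequencing depth is not given.

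The inclusive peak lists were compared with GENCODE M21 gene models on 21 chromosomes in Python 3.11.15 with NumPy 2.4.6, pandas 2.3.3 and SciPy 1.17.1. Models that shared a symbol were counted once (21938 models). Body peaks had their centre in the gene or its 10 kb flanks, and overlap between libraries meant at least 1 bp. In simulated data 200 of 200 peaks placed inside promoter windows were recovered, a check of the code and not of how well open promoters are detected. The members, gene lists, words and alternatives were chosen with earlier results of these data known. Every gene with a promoter peak in at least 1 library is named, with SD for the 3 highest of each role, and closed genes are named by role. Of other lists the 3 highest and up to 3 closed genes are named. Among the genes that the rule takes, 1 is not reported here but counts in the totals. Counts are set beside those of all protein-coding genes, with no test.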

Additional observations from a re-analysis of the deposited data

How the results depend on the processing

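No paired analysis was possible because there was 1 group. The number of open cytokine and chemokine genes, 57, ranged from 38 with the stronger 50% of peaks to 74 with promoter windows of 2500 bp, and lay below the share of all protein-coding genes under each of the 7 settings that kept both libraries. With the stricter list, the open CXC chemokines fell to 3, the median signal was 1.41, the median log2 ratio -0.19, closed genes with an interval 6, body peaks 2 per gene, their overlap 80.1% and cluster density 28.3 peaks per Mb. With the stronger 50% of peaks, open interleukin ligands fell to 8, CXC chemokines to 3, CXC receptors to 1 and CpG-poor genes to 24; the median signal was 1.61, the ratio -0.25, closed genes with an interval 16, body peaks 1, overlap 86.3% and density 16.9. Windows of 500 bp gave a ratio of -0.25, and those of 2500 bp 20 open interleukin ligands, 4 open CC receptors and a ratio of -0.25. Use of the 5′ end alone gave 1 open CC receptor, a median signal of 0.812, a ratio of -0.19 and 1 closed gene with an interval. Leaving out peaks at another protein-coding start, or at a start of any other gene (added after seeing the data), left 1 open CC receptor. The gene body alone gave a median of 1 peak and an overlap of 71.1%, flanks of 50 kb 10 and 77.5%, no peaks near starts 2 and 70.1%, and a required overlap of 50% of the peak 69.0%. Relative to the median of all genes, the ratio was 0.011. Leaving out either library gave 60 to 64 open genes and 1 closed gene with an interval in the library kept. The stricter list and the stronger 50% hold fewer peaks by construction, and the causes of these shifts were not tested.

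Depth is not stated, so whether a gene open in 1 library (signals of 0.252 to 0.430) was closed in the other or missed there cannot be told apart.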

Other observations

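Some values outside the comparisons above may be of use. The CTCF word (CC, any 3 bases, AG, any base, GG; added after seeing the data) was in the 150 bases around the strongest promoter peak of 8 of the 57 open genes (14.0%), against 20.9% of open protein-coding genes. At Il6 it lies inside a footprint called in both libraries, in the intronic sequence printed for that gene. Antisense or noncoding starts share the strongest peak of Il7 (Gm16685), Il6ra (Gm42809) and Il1r2 (Gm16894), and DNase-seq does not show from which strand such a site is transcribed. The fractalkine pair, which the symbol rule does not take, was open at both genes: the neuronal ligand Cx3cl1 had 4.07 in replicate 1 and 4.99 in replicate 2, and the microglial receptor Cx3cr1 had 0.601 and 0.743. Cx3cr1 had 40 peaks in its gene body and flanks in replicate 1 and 25 in replicate 2, more than any of the 134 listed genes in replicate 1.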
